A study of Mus musculus with 33 samples.

Results

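Cardiomyocytes that carried a signal of the cell cycle 5 days after birth were compared with cardiomyocytes that carried it at embryonic day 14.5 (E14.5). The comparison rested on 15 of the 33 single cells in the series, 5 from postnatal day 5 (P5) and 10 from E14.5. All cells came from digested ventricles of mice with the transgene mAG-hGem, which joins a green fluorescent protein to geminin and is part of the FUCCI reporter, and the labels give no treatment. In both groups a cell sorter had kept the cells positive for the reporter, and a PCR for Tnnt2 had been used to accept cells as cardiomyocytes, so Tnnt2 is no finding here. The E14.5 cells are those labelled G1, G2, G5, G6, G8, G10, G25, G27, G28 and G29, and the P5 cells are L1P5, L2P3, L2P7, L2P8 and L2P10. Strain, sex and animal are not given in the sources used here. Each group was therefore treated as 1 sample with no replicate check, and no test was made. The E14.5 and P5 cells also carry separate title series, so age and the handling of each series cannot be told apart.

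The 5 P5 cells were chosen on measured values. A further P5 cell with the reporter, L2P12, was left out because 10 endothelial marker genes summed to 15875 counts per 1000000 reads (CPM) in it and 10 cardiomyocyte markers to 93.1 CPM. In the 5 members the endothelial sum was at most 22.04 CPM and the cardiomyocyte sum at least 19344 CPM, the latter in L1P5. All 10 E14.5 cells with the reporter were kept, at cardiomyocyte sums of 13196 to 35534 CPM. These levels only describe the choice, and the higher cardiomyocyte sums at P5 belong to it.

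Geminin is present from S phase to mitosis and is degraded as cells leave mitosis, so the reporter marks cells in S, G2 and M phase. Mouse cardiomyocytes divide in the embryo, and in the days after birth many copy their DNA without completing division and then leave the cell cycle. Over the same days the ventricle exchanges embryonic forms of its contractile proteins for adult ones and turns from glucose and lactate towards fatty acids and mitochondrial respiration as its source of ATP.

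Totals ran from 2.55 M to 26.7 M reads in P5 cells and from 8.40 M to 38.5 M in E14.5 cells, where 1 M is 1000000. A P5 cell had a read in 3991 to 8786 genes and an E14.5 cell in 6675 to 10769. After every cell was thinned to 2.55 M reads, the total of L1P5, the medians were 5494 genes at P5 and 7313 at E14.5. Markers of other cells were low in all 15 cells. Sums over the markers reached 22.04 CPM for endothelial cells, 17.1 CPM for fibroblasts and mural cells, 0.0656 CPM for red blood cells and 41.2 CPM for leukocytes. The epicardial sum was 129 CPM in G2, nearly all from Wt1, and at most 55.1 CPM in the other cells. Intervals given for CPM or shares cover counting error only, since amplified reads are not independent molecules.

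Levels were compared by the median cell of each age. The difference is log2(CPM + 1) of the median P5 cell minus that of the median E14.5 cell, a scale that understates the change of low genes. Among 7807 genes with a mean of at least 5 CPM over the 15 cells, 598 (7.66%) were at least 4-fold higher at P5 and 2888 (37.0%) at least 4-fold lower. Every P5 cell lay above every E14.5 cell for 96 genes (1.23%) and below for 145 (1.86%). Leaving out 1 cell raised these counts to as many as 207 (without L1P5) and 271 (without L2P7). The median over all 7807 genes was -1.12, and -0.58 without L1P5. Most genes thus had a lower median CPM at P5, and a list near -1.12 moved no more than the table as a whole. Of the 4-fold calls 17.2% were higher. TMM factors, which assume that most genes are alike, gave 27.6% with 915 higher and 2395 lower, DESeq2 size factors gave 29.9%, summed counts 31.9% and centring on the all-gene median 42.9%.

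The difference also ran with the composition of the transcripts. Across 7380 genes its Spearman correlation was 0.28 with GC content and -0.27 with transcript length, given as a description since genes are not independent. With the genes in 10 equal bins, the bin of lowest GC content had a median of -1.95 and that of highest 0.02. The bin of shortest transcripts had 0.32 and that of longest -1.99. The mean GC content weighted by reads was 47.4% to 50.2% in P5 cells and 46.3% to 47.4% in E14.5 cells. The part of GC content and length in the results below was not tested, and list medians centred within the bins of either are given where they moved by more than the spread between cells.

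**Figure D1:**
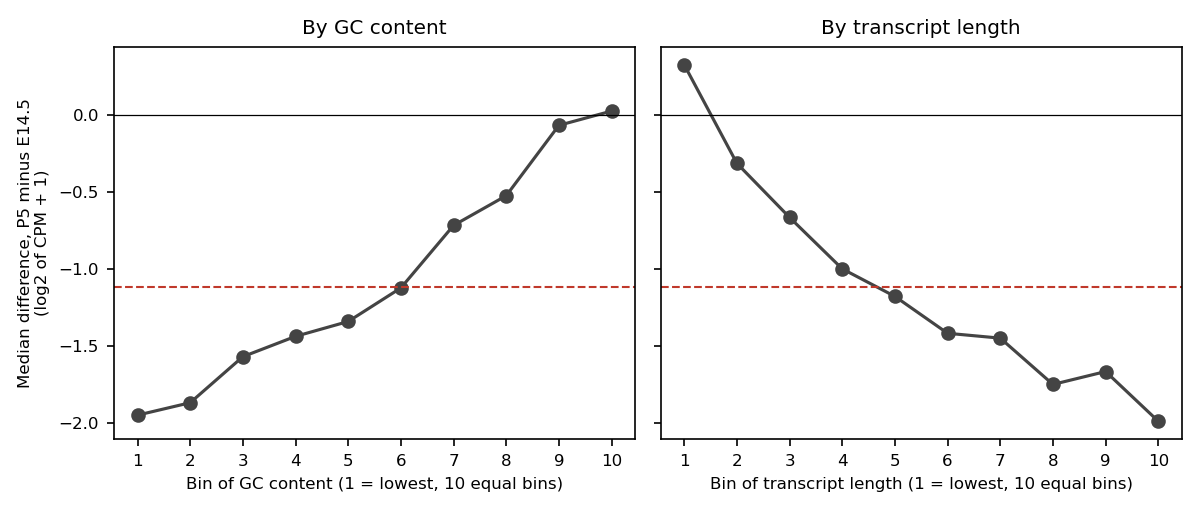
Median difference between P5 and E14.5 cells (y axis, log2 of CPM + 1) over 10 bins of 7380 genes by transcript GC content (left) and length (right), with the dashed line at the median of all genes, -1.12. The median climbs from -1.95 to 0.02 with GC content and drops from 0.32 to -1.99 with length.

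Sarcomere genes of the adult ventricle were mostly higher at P5. Of 25 such genes in the table, 10 were at least 4-fold higher and 1 at least 4-fold lower, against 7.66% and 37.0% of all genes. The median difference was 1.16 beside -1.12 over all genes, and it was 1.92 relative to genes of like GC content and 2.76 relative to genes of like length. Every P5 cell lay above every E14.5 cell for Myh6, Tnni3 and Actn2. The list shares 8 genes with the cardiomyocyte markers whose sum chose the P5 cells (Myh6, Tnnt2, Tnnc1, Actc1, Myl3, Mybpc3, Ttn and Actn2), and their levels only describe that choice. Of the other 17 genes, 6 were at least 4-fold higher and 1, Nebl, at least 4-fold lower, with a median of 1.14 and with Tnni3 alone without overlap.

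Myh6 (chr14:54941921-54968017, mm10), a marker that chose the P5 cells, encodes the fast alpha myosin heavy chain. It stood at 4044, 5920, 7272, 18646 and 5918 CPM in L1P5, L2P3, L2P7, L2P8 and L2P10. In E14.5 cells it ran from 45.7 to 696 CPM with a median of 186. All P5 cells were above all E14.5 cells, and the medians differed 31.9-fold. The summed counts gave 10984 CPM at P5 (95% exact Poisson interval 10959 to 11008) and 251 CPM at E14.5 (248 to 253), and L2P8 held 65.2% of the P5 reads.

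Tnni3 (chr7:4518305-4522718), the cardiac inhibitory troponin, was at 1824, 3538, 1921, 3336 and 3855 CPM in the same order of P5 cells and at 253 to 750 CPM, median 370, at E14.5. Actn2 (chr13:12269426-12340732), the alpha-actinin that anchors thin filaments in the Z disc, was at 191, 212, 376, 1149 and 714 CPM and at 24.8 to 164, median 61.2, at E14.5. The medians were 9.02-fold and 6.14-fold higher at P5. Xirp2, an actin-binding protein of the intercalated disc, was not uniform at P5. It stood at 152, 69.3 and 76.7 CPM in L2P3, L2P8 and L2P10, at 0.160 CPM in L2P7 and at 0 in L1P5, and no E14.5 cell passed 0.564 CPM.

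Other structural genes were lower at P5 or differed little between the ages. Nebl, encoding the nebulin-like Z-disc protein nebulette, was at or near 0 in 4 P5 cells and at 9.04 CPM in L1P5, against a median of 41.5 CPM and a range of 0 to 225 at E14.5. Actc1, the cardiac actin, had medians of 13472 CPM at P5 and 9769 CPM at E14.5, with overlapping cells. The difference of Ttn, the giant spring protein titin, was -1.38, near the all-gene median, with P5 cells at 361 to 2282 CPM.

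The 250 bases before the start sites of mature sarcomere genes were read in RefSeq (GRCm38.p6), where 21 of 25 genes had an entry, because these genes moved together for the most part. After the values were seen, 7 motifs were searched on both strands: MEF2, NRF1, ERR and its core, CArG, MCAT and GATA. The MEF2 motif was searched as a palindrome of 10 bases with the middle 4 left free, which is a loose form of it. A match was present for 5 genes (23.8%) beside 3.3% of 5921 genes of the table with an entry. Capitals mark the match in the stretches of 50 bases that follow.
Mybpc3: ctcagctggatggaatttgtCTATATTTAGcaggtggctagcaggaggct
Myoz2: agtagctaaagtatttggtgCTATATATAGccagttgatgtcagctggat
Xirp2: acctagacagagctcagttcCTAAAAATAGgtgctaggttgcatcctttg
Ttn: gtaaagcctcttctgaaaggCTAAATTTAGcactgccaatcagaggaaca
Ldb3: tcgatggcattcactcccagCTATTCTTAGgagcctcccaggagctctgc

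The 5 stretches are chr2:91118034-91118083 for Mybpc3 and chr2:67445908-67445957 for Xirp2 on the plus strand, and chr3:123034991-123035040 for Myoz2, chr2:76982684-76982733 for Ttn and chr14:34588633-34588682 for Ldb3 on the minus strand. The genes encode the myosin binding protein C, calsarcin-1, the actin-binding Xirp2, titin and the Z-disc protein cypher. Their differences were 1.51 for Mybpc3, 2.17 for Myoz2, 6.13 for Xirp2, -1.38 for Ttn and -0.29 for Ldb3, so genes with the motif did not share a direction. The middle bases of the Ldb3 match hold a C, and those of the other matches only A and T. A match only describes the letters in this window.

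The other motifs were counted the same way. MCAT (CATTCCT) was present for 28.6% of the mature sarcomere genes, among them Myh6, for 21.4% of the embryonic muscle genes described next, and for 4.4% of all. It was thus found in lists of both directions. Among mature sarcomere genes the motif of GATA factors, with the letters AGATAA, was present for 28.6%, beside 6.4% of all. The NRF1 motif was present for 11 of 62 respiratory chain genes (17.7%) and 10.9% of all. The ERR motif (TCAAGGTCA) was present for 1.6% of the respiratory chain genes and 0.3% of all, and its core (AAGGTCA), which it contains, for 8.1% and 3.3%. The CArG search, with every base free between its outer pairs, is loose and matched 84.6% of all genes and 76.2% of the mature sarcomere genes.

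Muscle isoforms known from the embryonic heart or from smooth and skeletal muscle were mostly lower. Of 15 genes 8 were at least 4-fold lower and 1 at least 4-fold higher, and 4 had every P5 cell below every E14.5 cell, beside 37.0%, 7.66% and 1.86% of all genes, with a median difference of -2.02 (-1.06 without L1P5). Myh7 is a marker that chose the P5 cells, and without it the median was -1.63, with 7 of 14 genes at least 4-fold lower and 3 without overlap. Myh7 (chr14:54970684-54994626), the slow beta myosin heavy chain, stood at 131, 0, 114, 202 and 10.1 CPM in the P5 cells and at 992 to 3087, median 1513, at E14.5. The medians were 13.2-fold apart without overlap. Myl4, an essential light chain of atrial and embryonic muscle, was at 0, 8.79, 30.7, 38.7 and 10.02 CPM at P5 and at 43.9 to 1377, median 426, at E14.5.

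Myl7, the atrial regulatory light chain, had no read in any P5 cell and 9.24 to 479 CPM, median 92.5, at E14.5. Cnn1, the smooth muscle calponin, likewise had no read at P5 and 5.25 to 114 CPM at E14.5. For both genes the exact Poisson limit on the P5 sum was 0.0530 CPM. Vcan and Tbx18 were also among the 18 genes read in all 10 E14.5 cells and in no P5 cell, whereas 1 gene, Tnfaip2, was read in all P5 cells and in no E14.5 cell. Tbx18 and Tnfaip2 were named after their detection was seen. A share of 0 of 5 cells has an exact binomial upper limit of 52.2%.

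Tnni1, the slow skeletal troponin I of the embryonic heart, went against its list. It was at 264, 280, 2257, 2599 and 5112 CPM in L1P5, L2P3, L2P7, L2P8 and L2P10, and at 174 to 936 CPM, median 527, at E14.5. The first 2 of these cells sat inside the E14.5 range and the other 3 above it.

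**Figure D2:**
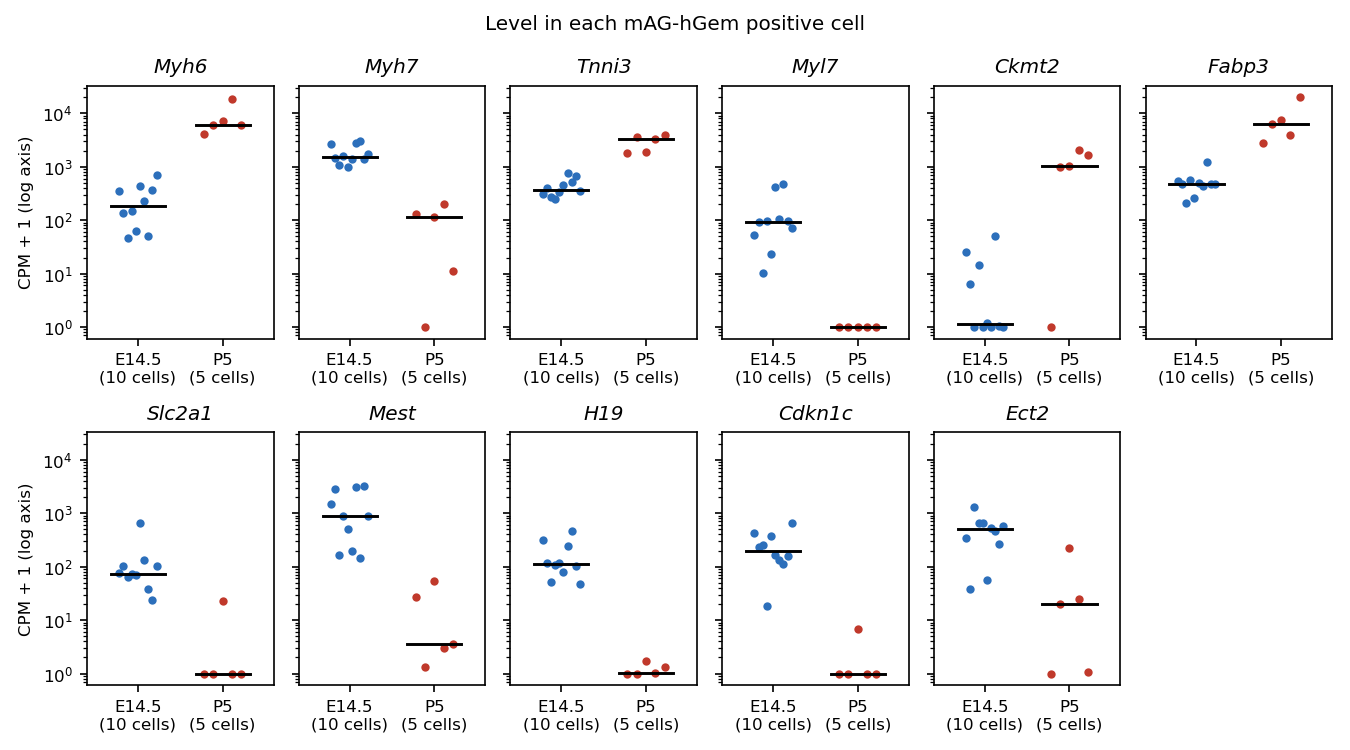
Level of 11 genes in each reporter-positive cell (CPM + 1 on a log axis) at E14.5 (10 cells, blue) and P5 (5 cells, red), with a line at the median. Myh6, Tnni3 and Fabp3 are higher in every P5 cell, Myh7, Myl7, Slc2a1, Mest, H19 and Cdkn1c lower in every P5 cell, while Ckmt2 (0 in L1P5) and Ect2 overlap.

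Shares within a pair of related genes do not depend on the scaling of a cell, though they are shares of reads and not per length. The share of Myh6 in the reads of Myh6 plus Myh7 was 96.9% to 100% in P5 cells, median 98.9%, and 1.57% to 28.4%, median 8.60%, in E14.5 cells. Both genes are alike in sequence and lie side by side, so reads that fit both could be lost or split. Both are also markers whose sum chose the P5 cells, so this share is not independent of that choice. The embryonic cells without the reporter had a median Myh6 share of 9.75%. The share of Tnni3 in Tnni3 plus Tnni1 overlapped, at 43.0% to 92.7% at P5 and 33.8% to 65.5% at E14.5, and only L1P5 and L2P3 passed the E14.5 range.

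Shares of 3 metabolic pairs also separated the P5 cells from the E14.5 cells with the reporter. Ldhb, the heart form of lactate dehydrogenase, made up 76.9% to 96.5% of Ldhb plus Ldha at P5 (median 83.1%) and 17.8% to 68.8% at E14.5 (median 42.5%), without overlap. Pgam2, the muscle phosphoglycerate mutase, made up 95.2% to 100% of its pair with Pgam1 at P5 and 40.8% to 86.4% at E14.5. Slc2a4, the insulin-responsive glucose transporter GLUT4, held 60.5% of its pair with Slc2a1 in L2P7 and 100% in L2P3, L2P8 and L2P10. It held at most 16% at E14.5, and L1P5 had too few reads of the pair. In embryonic cells without the reporter the Pgam2 share reached 97.3%, inside the P5 range. The Ldhb share reached 76.01% there, just under the lowest P5 cell, and the Slc2a4 share 30.8%.

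Cytochrome c oxidase pairs were shifted with overlap. The muscle subunit Cox6a2 had a median share of 77.0% at P5 and 47.9% at E14.5, Cox7a1 19.99% and 6.10%, and Cox8b 11.2% and 3.17%. G5, an E14.5 cell, had the highest Cox6a2 share of all 15 cells, 82.5%. Hexokinase had no single direction, since the Hk2 share was 94.2% and 92.8% in L2P3 and L2P7 and at most 8.52% in the other P5 cells.

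**Figure D3:**
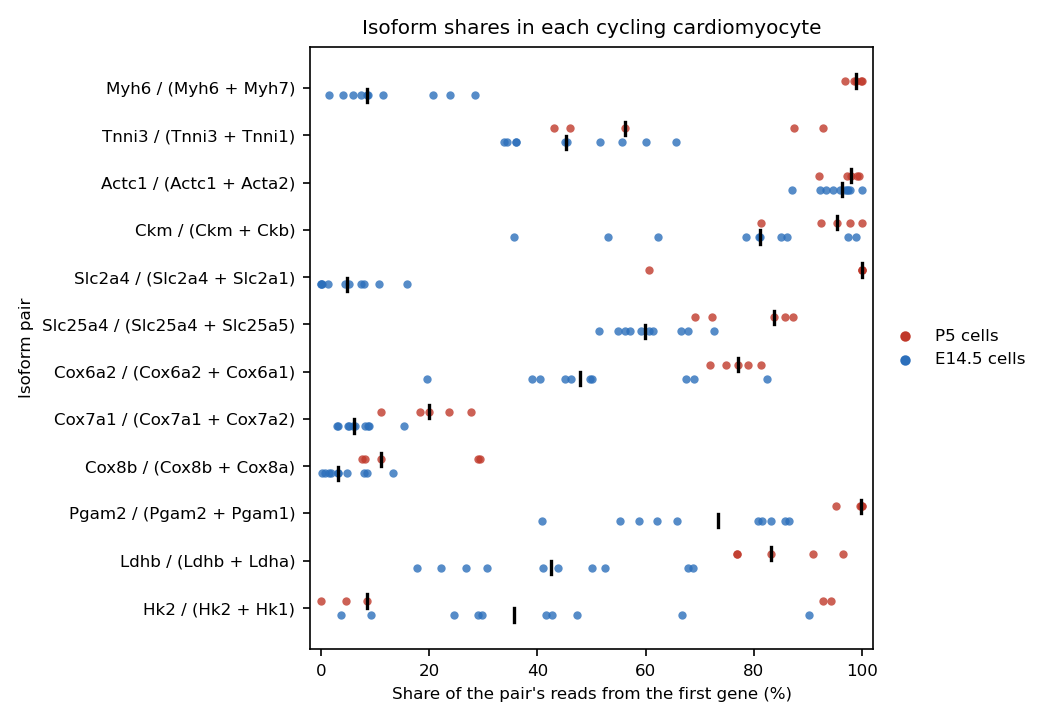
Share of a pair's reads that came from the first gene (x axis, %) in each P5 cell (red, upper row of a pair) and E14.5 cell (blue, lower row) for 12 pairs, with a tick at the median. The Myh6, Slc2a4, Pgam2 and Ldhb shares separate the P5 and E14.5 cells drawn, and the other pairs overlap. The enolase and calcium channel pairs, near 100% at both ages, are not drawn.

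Genes of mitochondrial respiration were mostly higher at P5, 71 of 75 with a difference above 0, beside 2239 of 7807 over all genes. Of 75 nuclear genes of the respiratory chain and ATP synthase, 32 were at least 4-fold higher at P5 and 0 at least 4-fold lower, and for 25 every P5 cell lay above every E14.5 cell, beside 7.66%, 37.0% and 1.23% of all genes. Their median difference was 1.84 beside -1.12 over all genes. It was 2.53 relative to genes of like GC content, 2.47 with TMM factors and 1.27 against the E14.5 cells with titles 25 to 29 alone. The 75 genes summed to 172439, 190063, 127843, 120550 and 212963 CPM in the P5 cells in the order used above, and to 60411 to 108988 CPM at E14.5, median 73748. The genes of this list are short, with a median transcript of 1001 bases beside 3472 over all genes. The bin of shortest transcripts, 86 to 1401 bases, had a median of 0.32. In it 19.8% of genes were at least 4-fold higher and 16.2% at least 4-fold lower, a nearer reference than all genes. Centring on length moved the list's median by less than the spread between cells.

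Members of several complexes were among those without overlap. Atp5g1 (chr11:96072793-96075694), a c-ring subunit of ATP synthase, was at 1980, 2339, 3833, 10574 and 10042 CPM at P5 and at 32.5 to 617, median 190, at E14.5, a 20.2-fold difference of medians. Ndufs8 and Ndufs7, iron-sulphur subunits of complex I, were 18.8-fold and 17.2-fold higher, and Sdhb, the iron-sulphur subunit of complex II, 4.78-fold. Cox8b (chr7:140898942-140900446), the heart and muscle subunit 8 of complex IV, was at 109, 248, 54.3, 218 and 116 CPM against at most 24.4 CPM at E14.5. Cox6a2 and Cox7a1 were 7.64-fold and 16.03-fold higher, also without overlap.

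The 20 genes of the tricarboxylic acid cycle had a median difference of 1.20, or 2.18 and 1.87 relative to genes of like GC content and length, and 6 of them had a difference below 0, the lowest -1.11. At least 4-fold higher were 3 genes, at least 4-fold lower 0, and 5 had every P5 cell above, beside 7.66%, 37.0% and 1.23% of all genes. Idh3b, a subunit of the NAD-dependent isocitrate dehydrogenase, was at 607 to 3908 CPM at P5 and 91.8 to 420 CPM at E14.5. Ogdh, the oxoglutarate dehydrogenase, was 4.45-fold higher with P5 cells at 214 to 407 CPM and E14.5 cells at 23.3 to 122 CPM.

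Fatty acid genes were mostly higher at P5. Of 31 genes 8 were at least 4-fold higher, 0 at least 4-fold lower and 6 higher without overlap, beside 7.66%, 37.0% and 1.23% of all genes, with a median difference of 1.29, or 2.37 and 2.46 relative to genes of like GC content and length. Fabp3 (chr4:130308738-130315463), the heart fatty acid binding protein, stood at 2769, 6235, 7576, 3867 and 19722 CPM at P5 and at 207 to 1229, median 472, at E14.5. Acadvl, which starts the oxidation of very long chains, was at 175, 182, 274, 1101 and 478 CPM against 1.66 to 29.8 CPM. Etfb, which passes electrons from the acyl-CoA dehydrogenases to the chain, was at 395 to 1448 CPM against 37.5 to 126 CPM.

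Cpt1a, the liver form of the carnitine palmitoyltransferase that admits long chains to mitochondria, overlapped between the ages. It was at 88.4, 6.76, 23.3, 0.561 and 2.39 CPM at P5 and at 0.179 to 20.3 CPM at E14.5. Its muscle partner Cpt1b was not analysed here. Crat and Ech1, a carnitine acetyltransferase and a dienoyl-CoA isomerase, were 22.9-fold and 20.3-fold higher at P5 without overlap.

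Several energy transfer genes differed widely between the ages, and L1P5 stood apart in them. Of 13 genes 5 were at least 4-fold higher and 0 at least 4-fold lower, beside 7.66% and 37.0% of all genes. The list's median difference was 1.00, and 0.50 with 4 of 12 at least 4-fold higher without Ckmt2, a marker that chose the P5 cells. Ckmt2 (chr13:91853386-91876923), the sarcomeric mitochondrial creatine kinase, was at 988, 1040, 2064 and 1627 CPM in L2P3, L2P7, L2P8 and L2P10, and at 0 in L1P5. At E14.5 it ran from 0 to 50.5 CPM with a median of 0.120. It was proposed as a marker of these cells, but it did not mark the E14.5 cells or L1P5. Mb, encoding myoglobin, was at 578, 2278, 5625, 17397 and 12817 CPM at P5 and at 20.3 to 1754, median 131, at E14.5. The muscle creatine kinase Ckm was at 323 to 2481 CPM against 3.94 to 376 CPM. L1P5 had the lowest level of both genes among the P5 cells. Mb overlapped the E14.5 range in L1P5 alone, and Ckm in L1P5 and L2P3.

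Glycolysis divided by isoform. Of 26 genes 5 were at least 4-fold higher and 5 at least 4-fold lower, beside 7.66% and 37.0% of all genes. The median difference was -0.11, and its sign turned under TMM factors (0.45), under DESeq2 size factors (0.48) and relative to genes of like GC content (0.52) or length (1.18). Slc2a1 (chr4:119108745-119137330), the GLUT1 transporter of embryonic tissue, was at 21.8 CPM in L2P7 and had no read in the other 4 P5 cells, against 22.4 to 665 CPM, median 72.5, at E14.5. Slc2a3 had no read in any P5 cell and a median of 30.4 CPM at E14.5. Pdk1, a kinase that inhibits pyruvate dehydrogenase, was at 253 and 42.3 CPM in L2P3 and L2P10 and at most 1.94 CPM in the other P5 cells. At E14.5 it was at 27.2 to 758 CPM.

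On the other side, Eno3, the muscle enolase, was at 1684 to 2830 CPM at P5 and 173 to 864 CPM at E14.5. Slc2a4 (chr11:69942286-69948216) was at 0, 75.9, 33.4, 96.0 and 54.1 CPM at P5 and at 0 to 36.04 CPM, median 4.39, at E14.5. Gapdh was at 1.18 and 2.82 CPM in L1P5 and L2P3 and at 678 to 1269 CPM in the other P5 cells. Gapdh and Eno1 have near-identical copies in the genome, and Eno1 was listed at or near 0 in all 15 cells, so both are uncertain.

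Calcium and channel genes had list medians of 0.00, or 1.63 and 1.32 relative to genes of like length. The centred values place the lists relative to other genes and are not a rise in level. A difference of 0 was held by 3 calcium and 6 channel genes. The median of the channel genes' medians was only 0.692 CPM at P5 and 0.312 CPM at E14.5. At least 4-fold higher were 3 of 23 and 4 of 24, and at least 4-fold lower 1 and 3, beside 7.66% and 37.0% of all genes. The shares of all genes cover only genes past the filter, which 19 calcium and 17 channel genes passed. S100a1, a calcium sensor of the sarcoplasmic reticulum, was at 22, 68.3, 58.0, 51.9 and 256 CPM at P5 and 2.48 to 20.8 CPM at E14.5, just without overlap. Hrc, a calcium buffer of the same store, was at 0 and 2.69 CPM in L1P5 and L2P3 and at 41.5 to 57.8 CPM in the other 3. Kcnip2, a subunit of the transient outward potassium channel, was at 28.7, 22.2 and 38.8 CPM in those same 3 cells and at most 2.76 CPM in L1P5, L2P3 and every E14.5 cell.

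Connexins were lower in the median cell. Gjc1, connexin 45 of the early heart, was at most 15.99 CPM at P5 and had a median of 60.8 CPM at E14.5. Gja1, connexin 43, was at 16.5, 531, 707, 167 and 125 CPM at P5 and 152 to 997 CPM, median 696, at E14.5. Its difference of -2.05 was -0.19 relative to genes of like GC content.

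**Figure D4:**
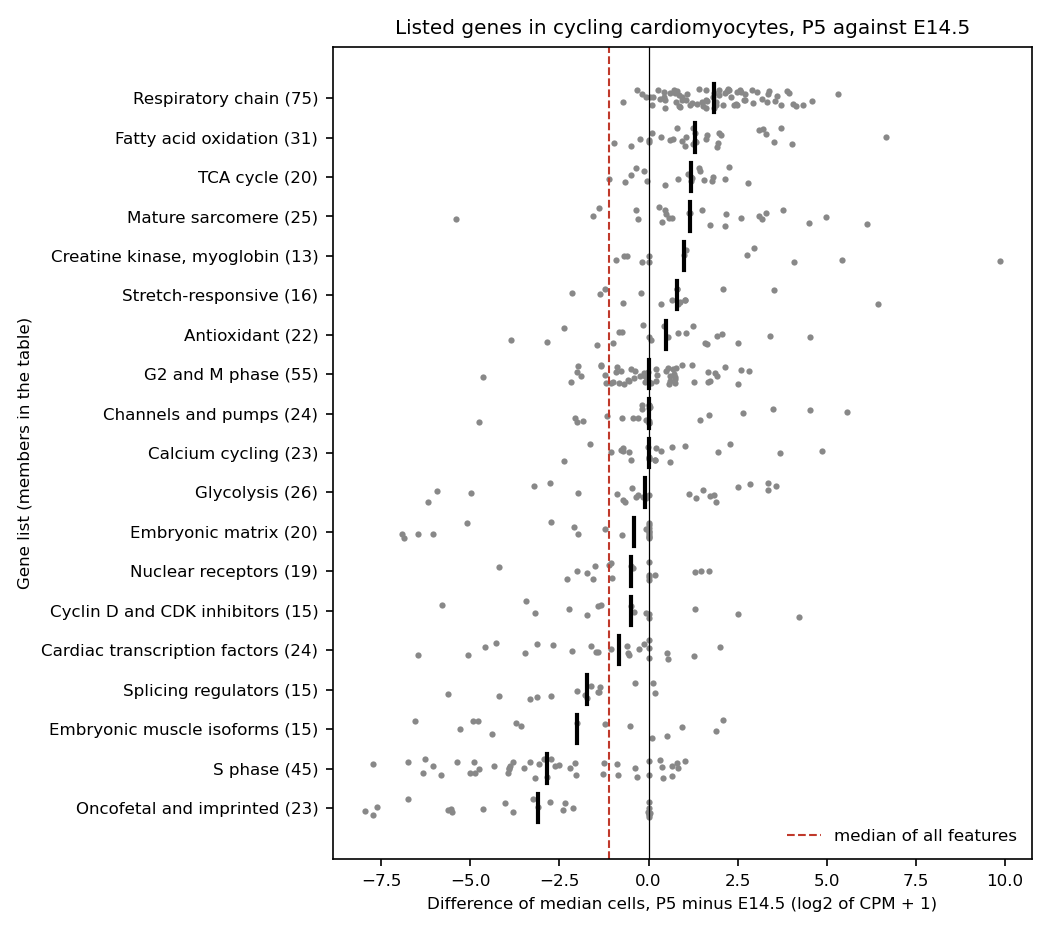
Difference between the median P5 and E14.5 cells (x axis, log2 of CPM + 1) for each gene (grey point) of 19 lists, with a black bar at the list's median and a dashed line at the median of all genes, -1.12. Respiratory chain, fatty acid and mature sarcomere genes lie to the right and oncofetal and S phase genes to the left.

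Oncofetal, imprinted and embryonic growth genes were the lowest list. Of 23 genes 16 were at least 4-fold lower at P5, 0 at least 4-fold higher, and 7 had every P5 cell below every E14.5 cell, beside 37.0%, 7.66% and 1.86% of all genes. The median difference was -3.10 beside -1.12 over all genes. Relative to genes of like length the median was -1.12. Their sum was 531, 1034, 1190, 1383 and 382 CPM in the P5 cells and 3749 to 9711 CPM at E14.5.

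Mest (chr6:30733506-30748466), an imprinted gene expressed from the paternal copy, was at 25.9, 0.328, 52.3, 2.06 and 2.55 CPM at P5 and at 141 to 3280, median 884, at E14.5. H19 (chr7:142575530-142578146), an imprinted noncoding RNA, was at most 0.719 CPM at P5 and at 46.2 to 459 CPM, median 110, at E14.5. Cdkn1c (chr7:143458339-143461059), an imprinted inhibitor of cyclin-dependent kinases, was at 5.75 CPM in L2P7, had no read in the other P5 cells, and was at 17.4 to 652 CPM at E14.5. Igf2bp2, an RNA-binding protein of embryonic growth, was at 7.19 CPM in L2P7 and had no read in the other P5 cells, against 27.7 to 608 CPM. In L2P7 11 genes of the list reached 10 CPM, beside 3 to 8 in the other P5 cells, while L2P8 had the highest sum.

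Some of these transcripts were not low in all P5 cells of the series. The 7 P5 cells led by markers of other types are L2P12 and the P5 cells without the reporter. In them Mest had a median of 4330 CPM and H19 of 524 CPM, and the list summed to a median of 9792 CPM. Cdkn1c and Igf2bp2 had low medians there, at 1.30 and 6.54 CPM. Cdkn1c was not low in each of these cells, since 3 of the 7 reached 10 CPM and the highest had 2699 CPM. Igf2bp2 was at most 25.9 CPM. The list's median log2(CPM + 1) in the median cell was 0.99 there, 0 in the P5 members and 5.35 in the E14.5 members. In E14.5 cells without the reporter Mest had a median of 566 CPM and H19 of 117 CPM.

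Of 20 matrix genes of the embryonic heart only 8 passed the filter of a mean of 5 CPM. At least 4-fold lower were 7 of the 20, and 9 had a difference of 0. The 37.0% of all genes covers only genes past the filter and is no like measure for this list. The median difference was -0.40, and 1.07 relative to genes of like length. Genes near 0 at both ages weigh on both values, since the median of the gene medians was 0 CPM at P5 and 0.352 CPM at E14.5. Vcan (chr13:89655309-89743027), the proteoglycan of the embryonic cardiac jelly, had no read at P5 and was at 5.82 to 253 CPM, median 114, at E14.5. Fbn2, a fibrillin, was at most 17.7 CPM at P5 and at 21.4 to 276 CPM at E14.5. Fn1, fibronectin, was at most 0.319 CPM at P5 with a median of 146 CPM at E14.5, but 1 E14.5 cell had 0.0833 CPM.

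Over the whole table, 94 genes were higher and 106 lower without overlap and with at least 10 CPM in the lowest cell of the higher age. Among the 12 highest were Myh6, Atp5g1, Cox8b, Crat, Ech1, Ndufs7 and Ndufs8, given above. Hfe2, encoding the iron regulator hemojuvelin of muscle and liver, was at 229, 74.2, 56.0, 80.4 and 105 CPM at P5 and at 0 to 49.9 CPM at E14.5, where 1 cell held 86.2% of the reads. Retsat, a retinol saturase, was at 15.7 to 135 CPM against at most 5.08 CPM. Syngr1, a vesicle membrane protein, was at 26.7 to 302 CPM against at most 7.74 CPM, and Fam174b at 68.8 to 393 CPM against at most 7.47 CPM. The last 4 genes named were at 0 in the median of the P5 cells led by other markers.

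The 12 lowest held Mest and Cdkn1c and also Fstl1 and Gpc3, both secreted or surface regulators of growth. Fstl1 (chr16:37777055-37836516), a follistatin-like glycoprotein, was at 71.1 and 22.6 CPM in L2P7 and L2P8 and at most 0.159 CPM in the other 3, against 328 to 2295 CPM, median 921, at E14.5. Gpc3, a glypican encoded on the X chromosome, was at most 3.91 CPM at P5 against 174 to 2572 CPM. Acsl3, an acyl-CoA synthetase of lipid droplets, was at most 23.2 CPM at P5 against 27.6 to 683 CPM. Rraga, a GTPase that brings the growth kinase mTOR to the lysosome, was at 96.5 CPM in L2P10 and at most 23.5 CPM in the other P5 cells, against 139 to 1669 CPM. Mis18a, which prepares centromeres for new Cenpa, was at most 1.46 CPM at P5 and at 45.8 to 383 CPM at E14.5, although Cenpa itself was higher in the median P5 cell. Cnn3, a non-muscle calponin, was at 28.6 CPM in L2P7, just under the lowest E14.5 cell, and its E14.5 median was 253 CPM.

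Cardiac transcription factors stood near the table as a whole, with a median difference of -0.83, 8 of 24 at least 4-fold lower and 1 at least 4-fold higher, beside 37.0% and 7.66% of all genes. Tbx20 (chr9:24720812-24774303), a T-box factor of the growing myocardium, was at 240, 1.31, 149, 32.8 and 0.398 CPM at P5 and at 409 to 1307 CPM, median 651, at E14.5, without overlap. Hey2, a Notch target of the compact ventricular wall, and Meis2, a homeobox factor, had E14.5 medians of 295 and 244 CPM and P5 medians of 7.93 and 1.75 CPM, and both overlapped. Nkx2-5, the cardiac homeobox factor, went the other way, at 0.786, 6.17, 41.0, 33.1 and 21.6 CPM at P5 and at most 8.62 CPM at E14.5.

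Of 19 metabolic nuclear receptors and coactivators 0 were at least 4-fold higher and 3 at least 4-fold lower, beside 7.66% and 37.0% of all genes. The median difference was -0.50 beside -1.12. Only 12 of the 19 passed the filter of a mean of 5 CPM, and 4 had a difference of 0. The values over all genes cover only genes past the filter and are no like measure for this list. The median of the gene medians was 0.131 CPM at P5 and 2.315 CPM at E14.5. Gabpa, a factor of nuclear mitochondrial genes, had a median of 7.15 CPM at P5 and 150 CPM at E14.5.

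Of 15 splicing regulators 6 were at least 4-fold lower, a share near the 37.0% of all genes, with a median difference of -1.73, which was -0.93 with TMM factors, -0.86 relative to genes of like GC content and -0.18 relative to genes of like length. Srsf1 (chr11:88046499-88053757), a splicing factor needed for the maturing heart, was at 89.2, 155, 112, 35.1 and 15.5 CPM at P5 and at 477 to 1182 CPM at E14.5. Srsf5, another serine and arginine rich factor, was at 3.14, 38, 157, 2.24 and 0.318 CPM against 222 to 1030 CPM.

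Stretch-responsive and antioxidant genes were mixed, with median differences of 0.80 and 0.50, the latter 1.63 and 1.44 relative to genes of like GC content and length. Nppb, the B-type natriuretic peptide, was at 1495, 924 and 1120 CPM in L1P5, L2P3 and L2P10 but at 8.70 and 76.2 CPM in L2P7 and L2P8, and ran from 0 to 384 CPM at E14.5. Hspb6, a small heat shock protein of muscle, was at 120 to 387 CPM at P5 and 7.51 to 94.1 CPM at E14.5. Prdx5, a peroxiredoxin, was at 43.6 CPM in L1P5 and 165 to 1516 CPM in the other P5 cells, with an E14.5 median of 40.7 CPM.

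The cell cycle lists parted. Of 45 S phase genes 29 were at least 4-fold lower at P5 and 0 at least 4-fold higher, against 37.0% and 7.66% of all genes, but no gene was without overlap. The median difference was -2.85, and -1.69 without L2P10. The list summed to 3885, 2864, 8025, 1918 and 451 CPM in L1P5, L2P3, L2P7, L2P8 and L2P10 and to 1488 to 17612 CPM, median 6490, at E14.5. L2P7 stood apart: 31 of the 45 genes reached 10 CPM there, as in the median E14.5 cell, and 5 to 17 in the other P5 cells.

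Single replication genes differed between the P5 cells. Mcm4, a subunit of the replicative helicase, was at 277 and 68.9 CPM in L2P3 and L2P7 and at most 0.477 CPM in the other P5 cells, with an E14.5 median of 310 CPM and a range from 0.0416 to 1544. Mcm6, of the same helicase, was at 476 CPM in L2P7 and 12.9 CPM or less in the others, with an E14.5 median of 150 CPM. Gmnn, the gene for geminin itself, was at 57.4, 249, 236, 29.9 and 1.35 CPM at P5 and at 29.7 to 213 CPM at E14.5.

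G2 and M phase genes had a median difference of 0.02 over 55 genes, beside -1.12 over all genes. At least 4-fold higher were 4 and at least 4-fold lower 3, beside 7.66% and 37.0% of all genes. They summed to 28078, 26513, 22866 and 27018 CPM in L1P5, L2P3, L2P7 and L2P8, inside the E14.5 range of 4866 to 34204 CPM, and to 565 CPM in L2P10. In L2P10 only 7 of the 55 genes reached 10 CPM, while 46 to 55 did in the other P5 cells and a median of 10 in E14.5 cells without the reporter. The transcripts of L2P10 therefore go against its label as a cycling cell. Without it the list's median was 0.50.

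Cdc20, Cdca3 and Cenpa were among the 4 G2 and M genes at least 4-fold higher at P5. That count was near the 7.66% share of all genes, and no gene of the list had every P5 cell above every E14.5 cell. Cdc20, an activator of the anaphase-promoting complex, was at 105, 368, 229, 498 and 0.716 CPM at P5 with an E14.5 median of 31.9 CPM and a maximum of 166. Cdca3, which promotes mitotic entry, was at 126 to 3082 CPM in the 4 P5 cells other than L2P10 and at 9.76 to 511 CPM at E14.5. Cenpa, the centromeric histone, was at 1015, 762, 384, 1127 and 11.8 CPM against 13.2 to 604 CPM.

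Ect2, the guanine nucleotide exchange factor that starts cleavage furrow formation and is named in the study's title, was the G2 and M gene with the lowest difference, -4.64. It was at 0, 19.2, 219, 24.2 and 0.0796 CPM in the P5 cells and at 36.5 to 1332 CPM, median 500, at E14.5. L2P7 alone sat inside the E14.5 range. Hmgb2, a chromatin protein of dividing cells, was at 7.40 to 199 CPM at P5 and 310 to 720 CPM at E14.5, the 1 gene of this list without overlap.

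Of 15 cyclin D genes and CDK inhibitors 10 had a difference below 0 and 3 above, beside 5312 and 2239 of the 7807 genes past the filter. This split is near that of all genes. The median difference was -0.51 beside -1.12 over all genes. At least 4-fold lower were 4 and at least 4-fold higher 2, beside 37.0% and 7.66% of all genes. Cdkn1a, encoding p21, was at 59.3, 16.9, 103 and 128 CPM in L1P5, L2P3, L2P7 and L2P8, at 0 in L2P10, and at 0 to 24.1 CPM at E14.5. Cdkn2c, encoding p18, was at 503, 64.1, 78.2 and 87.0 CPM in the first 4 cells and at 15.8 CPM in L2P10, with E14.5 cells at 0.197 to 56.0 CPM. Rbl1, the pocket protein p107, was at 55.8 CPM in L2P7 and 3.29 CPM or less in the others, with an E14.5 median of 55.0 CPM. Btg2 of the same list was also lower, with medians of 39.1 CPM at P5 and 188 CPM at E14.5 and with overlap.

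**Figure D5:**
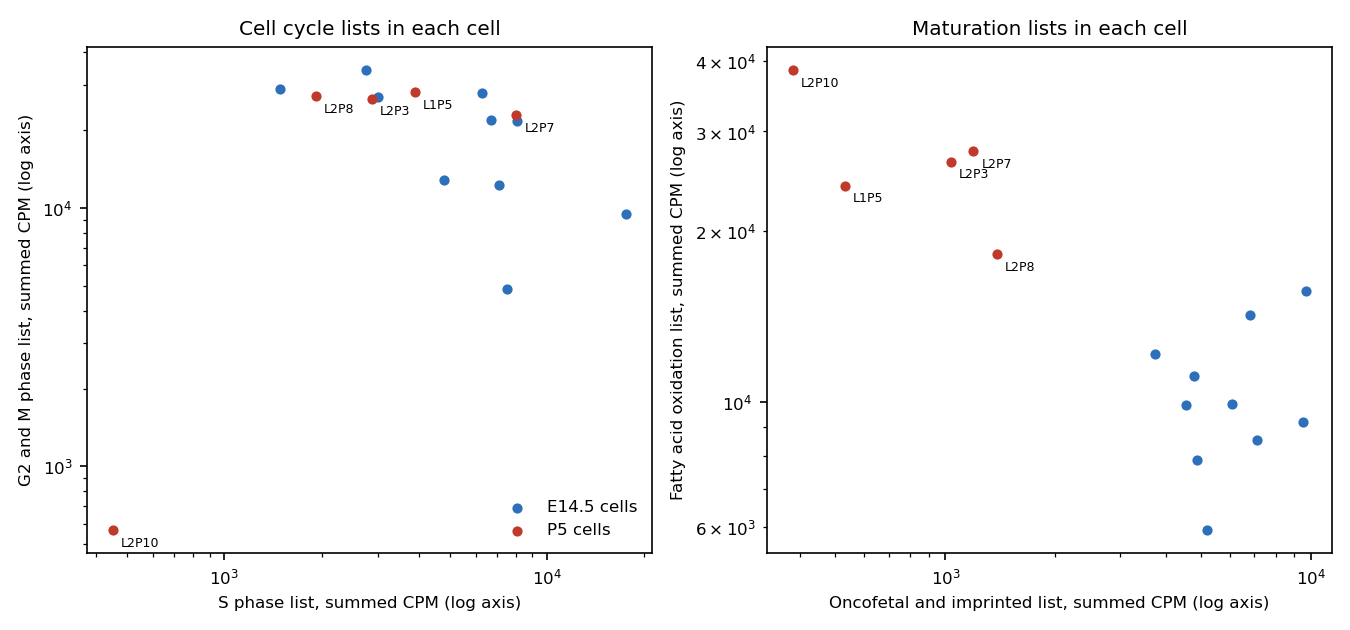
Summed CPM of the G2 and M list against the S phase list (left) and of the fatty acid list against the oncofetal and imprinted list (right), both axes log, for each P5 cell (red, named) and E14.5 cell (blue). L2P10 lies apart on the left at 565 and 451 CPM, and on the right the 5 P5 cells lie apart from the 10 E14.5 cells on both axes.

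Cells of 1 age were more alike than cells of both ages in the median, as Pearson r across genes on log2(CPM + 1), given as a description. The median r was 0.653 over 10 pairs of P5 cells, 0.737 over 45 pairs of E14.5 cells and 0.615 over 50 pairs of 1 cell of each age. The ranges overlapped, at 0.565 to 0.712 within P5, 0.679 to 0.867 within E14.5 and 0.544 to 0.722 across ages. The most alike pair across ages was L2P7 with G1, at 0.722, above every pair of P5 cells. No pair reached the level of a library present as 2 cells, since the highest was 0.867, between G1 and G2.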

How the data were processed

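The deposited table holds raw read counts of 14862 gene rows in 33 single cells. Per the submitters' processing notes, the authors used CASAVA 1.8.2, STAR 2.4.0j, HTSeq 0.6.1p1 and mm10. Annotation, strand and handling of reads that fit several genes are not given in the sources used here. Per the labels' protocols, cells were sorted, reverse transcribed, amplified as antisense RNA and sequenced from TruSeq libraries.

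Counts were divided by each cell's total to give CPM (Python 3.11.15, numpy 2.4.6, pandas 2.3.3). Symbols matched a gene table for 13445 rows directly, 559 after restoring hyphens or digits and 793 by synonym. Another 22 rows were calendar dates and 43 had no match. Date rows stayed in the totals only. Positions come from RefSeq (GRCm38.p6), and GC content and length from the GENCODE annotation of GRCm38. Genes were kept at a mean of 5 CPM over the 15 cells. A pseudocount of 1 CPM was used, and a pair's share needed 20 reads of the pair. A list's median and counts cover all members in the table, without that filter. Intervals are exact at 95%. Totals of 2.55 M to 38.5 M make counting error small beside the spread between cells. The calculation was tested on simulated data.

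Genes were named by rule. They are the 12 highest and 12 lowest differences among genes without overlap and with 10 CPM in the lowest cell of the higher group, up to 4 genes a direction past 4-fold in each list at 20 CPM or more in the higher median, the isoform pairs, the markers, Ect2 and Gmnn. Ttn, Mybpc3 and Actc1 are markers. Myoz2, Ldb3, Tbx18 and Tnfaip2 were named after their values were seen.

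The cells and gene lists were chosen with earlier results of these data known. Alternatives were other summaries, pseudocounts, filters, edgeR 4.0.16 TMM and DESeq2 1.42.0 size factors, thinning, other cells and leaving out each cell. Centring on GC content, length or all genes, and lists without the cardiomyocyte markers, were added after seeing the data. Some genes chosen by the rule are not reported here.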

Additional observations from a re-analysis of the deposited data

Results flagged for a closer look

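Of 69 sets of values within a group of cells, 14 held a cell that stood apart by Dixon's limit at 95%. Chance flags about 1 in 20 groups, which would be 3.45 sets. List levels below are the median over the list's genes of log2(CPM + 1) in that cell.

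Among P5 cells, L1P5 stood apart with low levels of calcium genes (1.363, nearest cell 5.145) and of stretch-responsive genes (2.639, nearest 6.382). L2P7 stood apart with high levels of oncofetal genes (3.033, nearest 0.104) and of S phase genes (6.018, nearest 1.297), and with the lowest share of Slc2a4, 60.55%. L2P8 had the highest level of glycolysis genes, 6.89. L2P10 had the lowest level of G2 and M phase genes, 0.6387 beside 6.922 in the nearest cell. L2P3 had the lowest share of Pgam2, 95.21%.

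Among E14.5 cells, G5 had the lowest levels of tricarboxylic acid cycle genes (8.38), cardiac transcription factors (1.123) and oncofetal genes (0.2721). The last of these was near the P5 cells, although the summed CPM of the list in G5 lay in the range of the other E14.5 cells. G27 had the highest total, 38.47 M reads, and the highest share of Cox7a1, 15.43%. G1 had the lowest share of Eno3, 99.8%.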

How the results depend on the processing

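No test was made, so alternatives show how values moved. No paired analysis was possible because each group is 1 sample of single cells and no result comes from a test. Leaving out 1 cell reversed no list median beyond the spread between cells. Among shares it reversed that of Hk2, whose difference between the ages ran from -33.2 to 14.97 percentage points, turning positive without L1P5, L2P8 or L2P10. The Cox8b share difference ran from 6.53 to 17.0.

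Genes at least 4-fold higher numbered 598. They were 906 with summed counts, 246 with a pseudocount of 10 CPM, 363 with a filter of 20 CPM, 915 with TMM, 974 with DESeq2 factors, 1228 at 2-fold, and 1097, 1089 and 1324 when centred on GC content, length and all genes. They ran from 577 to 948 without 1 cell, the latter without L1P5. The 2888 lower genes became 1103 with a pseudocount of 10 CPM and 1684, 1585 and 1759 when centred on GC content, length and all genes. The 96 genes above without overlap became 30 with L2P12 and 188 against titles 1 to 10 alone, and 96 to 207 without 1 cell, the latter without L1P5. The 145 below became 86 with TMM, 73 with DESeq2 factors, 86 with L2P12, 497 against titles 1 to 10, 334 against titles 25 to 29, and 148 to 271 without 1 cell, the latter without L2P7.

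List medians moved past the spread between cells as follows. With TMM and DESeq2 factors they were 0.45 and 0.48 for glycolysis, 1.69 and 1.88 for the tricarboxylic acid cycle, 2.47 and 2.52 for the respiratory chain and -0.93 and -0.78 for splicing. Centred on GC content they were 1.92 for mature sarcomere, 2.37 for fatty acids, 0.52 for glycolysis, 2.18 for the tricarboxylic acid cycle, 2.53 for the respiratory chain, -0.86 for splicing and 1.63 for antioxidant genes. Centred on length they were 2.76 for mature sarcomere, 1.63 for calcium, 1.32 for channels, 2.46 for fatty acids, 1.18 for glycolysis, 1.87 for the tricarboxylic acid cycle, -1.12 for oncofetal, 1.07 for matrix, -0.18 for splicing and 1.44 for antioxidant genes. At a pseudocount of 0.1 CPM they were -3.73 for embryonic muscle, -4.95 for oncofetal and -1.30 for matrix genes, the last also -1.83 with summed counts and -1.15 with mean logs. Against titles 25 to 29 they were 0.80 for the tricarboxylic acid cycle and 1.27 for the respiratory chain, and the Ldhb share difference was 23.02. The cause of these moves was not tested.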
